A study of Mus musculus with 17 samples.

Results

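The 9 genes described here encode transcription factors and receptor chains of interferon signalling, and they were taken from a table of 35321 gene symbols by symbol alone: Irf1, Irf2, Irf7, Irf9, Stat2, Ifnar1, Ifnar2, Ifngr1 and Ifngr2. All 9 passed the filter on low counts that left 14920 genes for testing. RNA with a poly(A) tail was sequenced from HSPC, the hematopoietic stem and progenitor cells that replenish the blood, which had been isolated by cell sorting from marrow of wild-type C57BL/6J mice. There were 5 groups. Mice received phosphate buffered saline (PBS, 5 libraries, titled day 0), LPS (lipopolysaccharide, the endotoxin of Gram-negative bacteria, sensed by Toll-like receptor 4) with harvest at 24 h or 72 h (3 libraries each), or LPS plus a blocking antibody against the receptor of interleukin-10 (IL-10, an anti-inflammatory cytokine), with harvest at 24 h or 72 h (3 libraries each). All injections were intraperitoneal. The amounts are given as 5 of LPS and 100 of antibody, in micrograms in the design text and in milligrams in the sample protocol. None of the 5 groups received the antibody alone or a control antibody. The labels used here give neither the age nor the sex of the mice, nor the gates of the sort, nor whether a library is 1 mouse or a pool, so p-values below measure the spread between libraries.

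Type I interferons bind a receptor made of the chains Ifnar1 and Ifnar2, and interferon-gamma binds a receptor made of Ifngr1 and Ifngr2. Kinases of the JAK family attached to the chains then phosphorylate STAT proteins. Stat2 joins another STAT and Irf9 in the complex ISGF3, which binds the interferon-stimulated response element (ISRE), whereas the response to interferon-gamma runs mainly through the gamma-activated site (GAS). Irf1 and Irf7 are themselves induced by interferon and amplify the response, and Irf2 competes with Irf1 for the same element and restrains it. In HSPC, interferon drives quiescent stem cells into cycle, and Irf2 is known to protect stem cells from the effects of chronic interferon signalling.

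The promoters of 4 factors are printed because these genes differed most between libraries or groups. Each runs from 250 bases before to 50 bases after the annotated start, 5′ to 3′ on the gene's strand, from RefSeq (GRCm38.p6). Capitals mark matches to the ISRE (GAAA, any 2 bases, GAAA) or the GAS (TTC, any 3 bases, GAA), searched on both strands.
Irf1 (chr11:53769764-53770063, plus strand): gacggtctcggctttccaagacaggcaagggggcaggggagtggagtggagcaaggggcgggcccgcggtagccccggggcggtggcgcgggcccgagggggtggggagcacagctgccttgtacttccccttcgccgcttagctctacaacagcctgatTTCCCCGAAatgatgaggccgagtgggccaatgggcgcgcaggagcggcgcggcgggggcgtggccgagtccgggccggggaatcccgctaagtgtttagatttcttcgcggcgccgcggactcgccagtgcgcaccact
Irf2 (chr8:46739495-46739794, plus strand): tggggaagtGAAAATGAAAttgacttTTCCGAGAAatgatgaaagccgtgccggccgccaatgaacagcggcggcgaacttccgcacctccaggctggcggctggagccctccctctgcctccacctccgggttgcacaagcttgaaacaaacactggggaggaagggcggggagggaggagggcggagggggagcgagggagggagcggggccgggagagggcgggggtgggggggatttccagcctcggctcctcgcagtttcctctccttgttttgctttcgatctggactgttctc
Stat2 (chr10:128270248-128270547, plus strand): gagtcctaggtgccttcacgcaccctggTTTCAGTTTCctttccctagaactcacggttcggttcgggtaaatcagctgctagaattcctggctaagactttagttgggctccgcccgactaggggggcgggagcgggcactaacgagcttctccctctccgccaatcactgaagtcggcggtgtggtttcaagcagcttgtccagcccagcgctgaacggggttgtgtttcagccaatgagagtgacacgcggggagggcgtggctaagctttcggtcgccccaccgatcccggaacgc
Irf7 (chr7:141266375-141266674, minus strand): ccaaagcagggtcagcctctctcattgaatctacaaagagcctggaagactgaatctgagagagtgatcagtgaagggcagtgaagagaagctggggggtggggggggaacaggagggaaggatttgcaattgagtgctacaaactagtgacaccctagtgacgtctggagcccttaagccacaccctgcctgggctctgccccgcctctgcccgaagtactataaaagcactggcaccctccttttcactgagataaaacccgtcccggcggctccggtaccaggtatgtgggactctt

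The promoter of Irf1 held 1 GAS match, TTCCCCGAA, at bases -90 to -82 from the start. That of Irf2 held an ISRE match, GAAAATGAAA, at -241 to -232 and a GAS match, TTCCGAGAA, at -224 to -216. In Stat2 the ISRE letters lay on the reverse strand at -222 to -213, and in the window of Irf7 neither set of letters was found. Among the receptor genes, Ifnar1 held a GAS match at -5 to 4 and Ifnar2 one at -214 to -206. In all, 2 of the 9 genes had an ISRE match and 4 of 9 a GAS match, against 3.99% and 9.55% of the 27025 genes with a promoter in the table. Irf1 and Irf9 have 2 listed starts each, so these counts rest on 11 windows, and no 2 matches overlapped. A match is a description of the letters and not evidence of binding.

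By the GRCm38 annotation all 9 genes are protein coding. Irf1 lies at chr11:53770014-53778374, Irf2 at chr8:46739732-46847458, Irf7 at chr7:141262706-141266481, Irf9 at chr14:55603571-55610030, Stat2 at chr10:128270559-128292849 and Ifngr1 at chr10:19591949-19610229. Irf7 is on the minus strand and the others are on the plus strand. The other 3 receptor genes lie close together, with Ifnar2 at chr16:91372783-91405589, Ifnar1 at chr16:91485238-91507441 and Ifngr2 at chr16:91547072-91565623. That interval of 192841 bases holds 5 annotated protein-coding genes, and the remaining 2 are Il10rb, a chain of the IL-10 receptor, at chr16:91406164-91425834, and Gm21970, whose span covers the end of Ifnar2 and the start of Il10rb. Exons of Ifnar2 and Gm21970 share 315 bases on the same strand (9.46% of the exon bases of Ifnar2), so their counts are not independent. Irf1 shares 135 exon bases with Gm17334 and Irf7 shares 45 with Phrf1 on the opposite strand, and Irf9 shares 123 with Rnf31 on its own strand. Strandedness of the counting is not given in the sources used here.

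Libraries held 10516722 to 16006001 counts. Levels below are CPM, that is counts scaled to a common library total after correction by the trimmed mean of M-values (TMM). The TMM factor ran from 0.947 to 1.12 except in library 1 with LPS at 24 h, where it was 0.799. The lowest count of any of the 9 genes in any library was 96, for Irf7. In the antibody groups, the library numbered 1 at each time stood apart in interferon genes. In these 2 libraries the summed level of 21 interferon-gamma targets was 6601 and 9559 CPM, against 1215 to 1908 CPM in the other 4 antibody libraries and 1209 to 1693 CPM with PBS. Called changes of the antibody groups are therefore also given without both of them, except for the lists of cell markers. That choice was made from their interferon genes, so for genes high in them the p-values of that fit are descriptive only. Of the 12 HSPC markers, all were tested, and their summed level was 1703 to 2560 CPM with PBS and 1054 to 1224 CPM with LPS at 24 h, with 8 of 12 lower (edgeR, adjusted p below 0.05). Ly6a (1.40, adjusted p = 0.117, edgeR) and Gata2 (0.59, adjusted p = 0.300) went the other way uncalled, Ly6a above every PBS library. With antibody at 24 h against PBS, 7 of 12 were lower and 1 higher, Ly6a (2.21, SE 0.68, adjusted p = 0.0298, edgeR). There 12.5% of all genes were lower and 11.7% higher. Summed over their lists, markers of resident macrophages fell from 377 to 3527 CPM with PBS to 65.8 to 91.9 CPM with LPS at 24 h (12 of 12 lower). Those of plasmacytoid dendritic cells fell from 333 to 577 CPM to 128 to 184 CPM (7 of 10 lower). Of the other marker lists, 3 of 8 B lymphoid, 2 of 7 monocyte, 2 of 10 T and NK, 1 of 10 erythroid and 0 of 8 neutrophil genes were lower with LPS at 24 h. LPS at 24 h against PBS called 18.5% of all tested genes lower. In bulk RNA, fewer cells of a type and less RNA per cell cannot be told apart.

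Irf7, the master regulator of type I interferon production, had the widest spread of the 9 genes. With PBS its level was 63.7, 69.3, 33.6, 45.5 and 38.2 CPM in libraries 1 to 5. It was 106, 61.5 and 163 CPM with LPS at 24 h, and 35.1, 16.6 and 17.9 CPM with LPS at 72 h. The 3 libraries at 72 h were all below the 3 at 24 h, and at 24 h the lowest LPS library fell inside the PBS range. With antibody, the levels were 453, 84.3 and 7.80 CPM at 24 h and 493, 43.9 and 10.3 CPM at 72 h. So within 1 antibody group the highest and lowest libraries differed 58.0-fold at 24 h and 47.8-fold at 72 h, against 2.06-fold over the 5 PBS libraries. At both times library 1 was above every library without antibody and library 3 was below every one of them.

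In the test over all genes (edgeR's quasi-likelihood test, Benjamini-Hochberg adjusted), Irf7 was not called in any comparison. Its log2 change with LPS at 24 h was 1.14 (SE 0.97, adjusted p = 0.371), and from 24 h to 72 h of LPS it was -2.25 (SE 1.17, adjusted p = 0.153). All libraries share 1 estimate of spread in that fit. In an edgeR fit of the 2 compared groups alone, the same changes were called, with adjusted p = 0.0154 and 0.00706. That was the only 1 of 9 alternative fits to call the change against PBS. The change from 24 h to 72 h was called in 3 of 8 alternatives. Leaving out 1 library at a time called neither (0 of 8 and 0 of 6 fits). For antibody against LPS at 72 h the estimate was 2.98 (SE 1.20, adjusted p = 0.0984), and without both antibody libraries numbered 1 it was 0.26 (adjusted p = 0.858). At 24 h it went from 0.72 (SE 1.10) to -1.25 without them, with an adjusted p of 1 in both edgeR fits.

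Irf1, an activator induced by both kinds of interferon, was low at 24 h of LPS in every library. Its level was 98.4, 118.5, 97.5, 96.1 and 112.5 CPM with PBS and 73.5, 67.6 and 76.4 CPM with LPS at 24 h. It was 131, 123 and 99.0 CPM with LPS at 72 h. The 24 h libraries lay below all PBS and all 72 h libraries. The log2 change against PBS was -0.53 (SE 0.47) and was not called by edgeR in the fit of all libraries (adjusted p = 0.396). It was called in the edgeR fit of these 2 groups alone (adjusted p = 0.00572). In all, 3 of 9 alternative fits called it, and 0 of 8 fits that left out 1 library.

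The antibody libraries of Irf1 split. Library 1 held 237 CPM at 24 h and 363 CPM at 72 h, above every library without antibody, whereas libraries 2 and 3 held 67.7 and 80.3 CPM at 24 h and 67.8 and 79.1 CPM at 72 h, below every PBS library. The mean of an antibody group therefore describes none of its libraries. With all of them, the log2 change of Irf1 against PBS was 0.30 (SE 0.46, adjusted p = 0.666, edgeR) at 24 h and 0.70 (SE 0.45, adjusted p = 0.303) at 72 h. Without both libraries numbered 1 it was -0.48 at each time (adjusted p = 0.0248 and 0.0498). Against LPS alone at 72 h it went from 0.53 (SE 0.52, adjusted p = 0.503) to -0.64 (adjusted p = 0.0176). The libraries left out were picked after their high interferon genes were seen, and they hold the most Irf1. The lower values without them are therefore a description and not a test. Antibody libraries 2 and 3 thus held similar levels at both times, while the 3 libraries with LPS alone were in or above the PBS range at 72 h.

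Stat2, the STAT specific to ISGF3, followed the same split. With PBS it was at 59.4, 70.9, 55.2, 54.9 and 53.1 CPM, with LPS at 24 h at 31.2, 41.3 and 62.3 CPM, and with LPS at 72 h at 54.7, 52.9 and 60.2 CPM. With antibody it was at 177, 46.1 and 32.7 CPM at 24 h and at 249, 39.5 and 39.7 CPM at 72 h. Library 1 was 4.51-fold and 6.29-fold above the mean of the other 2 of its group, and those others lay below every PBS library. No comparison called Stat2. Its log2 change with antibody against PBS at 24 h went from 0.54 (SE 0.56, adjusted p = 0.499) to -0.56 without both libraries numbered 1 (adjusted p = 0.0780), and at 72 h from 0.90 (SE 0.55, adjusted p = 0.278) to -0.54 (adjusted p = 0.122).

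Irf9, the DNA-binding subunit of ISGF3, varied less. Its level was 87.4, 88.6, 72.7, 84.9 and 82.0 CPM with PBS, 65.6, 65.4 and 83.3 CPM with LPS at 24 h and 76.4, 59.8 and 68.4 CPM with LPS at 72 h. With antibody it was 109, 66.0 and 36.9 CPM at 24 h and 109, 67.8 and 40.9 CPM at 72 h. At both times the 3 antibody libraries ran in the order 1, 2, 3, as they did for Irf7, and library 3 was below every library without antibody. Irf9 was not called in any comparison with all libraries. Without both antibody libraries numbered 1, which held the highest Irf9, it was lower with antibody at 24 h than with PBS (log2 change -0.67, adjusted p = 0.0447, edgeR). With those libraries picked after the data were seen, that value is a description and not a test.

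**Figure D1:**
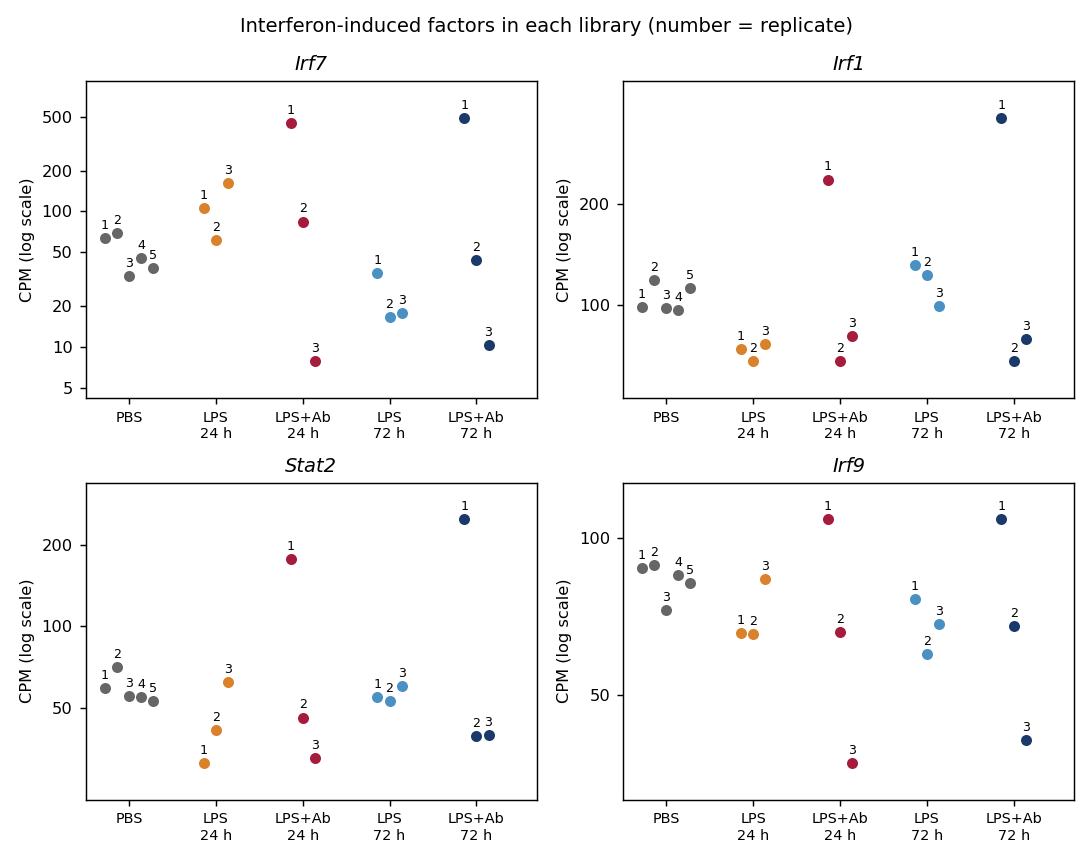
CPM of Irf7, Irf1, Stat2 and Irf9 on a log axis, 1 point per library with its replicate number, for the 5 groups (LPS+Ab is LPS with the antibody). The antibody libraries numbered 1 are the 2 highest points of every panel, at 453 and 493 CPM for Irf7 and 237 and 363 CPM for Irf1, and library 3 is the lowest of Irf7 and Irf9 at both times.

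The ratio of antibody library 1 to the mean of the other 2 ranked the factors alike at both times. At 24 h it was 9.83 for Irf7, 4.51 for Stat2, 3.20 for Irf1, 2.11 for Irf9 and 1.57 for Irf2, and at 72 h 18.2, 6.29, 4.94, 2.00 and 1.29. For the 4 receptor chains it was 0.949 to 1.08 at 24 h and 0.884 to 1.15 at 72 h. So Irf7, Stat2, Irf1 and Irf9 were high in these libraries and the receptor chains were not. Over all tested genes, antibody library 1 deviated alike at the 2 times (r = 0.723), so these may not be independent observations. Of all 14920 tested genes, 10% at 24 h and 8.42% at 72 h were at least 2-fold above the other 2 libraries there. Other lists moved with these libraries. The summed level of 10 erythroid markers was 1713, 391 and 21.2 CPM in antibody libraries 1, 2 and 3 at 24 h and 1034, 156 and 7.92 CPM at 72 h, against 201 to 379 CPM with PBS. With LPS alone it was 328 to 749 CPM at 24 h and 5.85 to 106 CPM at 72 h, a range that holds antibody library 3 at 72 h. For 10 plasmacytoid dendritic cell markers it was 243, 169 and 186 CPM at 24 h and 257, 232 and 203 CPM at 72 h. The part of such cells in these results was not tested.

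Interferon RNA itself was near the detection limit. None of 21 ligand genes passed the filter, and their summed level was at most 0.458 CPM in every library but antibody library 1 at 72 h, where it was 1.93 CPM. In that library Ifng, the gene of interferon-gamma, was at 1.77 CPM (21 counts). Ifnb1 had 2 counts there and none elsewhere.

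Irf2, the repressor that opposes Irf1, was lower at 24 h of LPS. Its level was 85.8, 87.6, 81.5, 70.4 and 98.8 CPM with PBS (84.8 ± 10.3, SD, n = 5) and 36.7, 47.1 and 40.4 CPM with LPS at 24 h (41.4 ± 5.26, SD, n = 3). The groups did not overlap. The log2 change was -1.03 (SE 0.20, adjusted p = 0.00144, edgeR). At 72 h of LPS it was back at 93.3, 69.7 and 71.5 CPM, and the rise from 24 h was 0.91 (SE 0.22, adjusted p = 0.00524). With antibody, Irf2 was at 69.7, 35.2 and 53.7 CPM at 24 h and 67.4, 58.4 and 46.0 CPM at 72 h, below every PBS library at both times. The change against PBS was -0.68 at 24 h (SE 0.20, adjusted p = 0.0224) and -0.57 at 72 h (SE 0.19, adjusted p = 0.0615). The call at 24 h was lost without PBS library 5 or without antibody library 2 or 3 (adjusted p up to 0.114). Without both antibody libraries numbered 1, the highest of their groups for Irf2, the change was -0.92 at 24 h (adjusted p = 0.00810) and -0.68 at 72 h (adjusted p = 0.0447). Those last values are descriptive, as these libraries were picked after the data were seen.

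Both chains of the type I receptor were lower at 24 h of LPS. Ifnar1 was at 80.8, 97.2, 96.7, 84.8 and 98.7 CPM with PBS and at 52.2, 76.6 and 68.4 CPM with LPS at 24 h. Ifnar2 was at 120, 147, 120, 126 and 127 CPM with PBS and at 88.3, 104 and 84.1 CPM with LPS at 24 h. Neither gene's groups overlapped. The log2 change was -0.48 for each (Ifnar1, SE 0.14, adjusted p = 0.0132; Ifnar2, SE 0.13, adjusted p = 0.00943, edgeR). Without library 1 of LPS at 24 h, the one with the low scaling factor, the change of Ifnar1 was -0.33 and was not called (adjusted p = 0.0996).

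By 72 h of LPS both chains were at or above PBS. Ifnar1 held 99.6, 97.5 and 115 CPM and Ifnar2 held 147, 144 and 164 CPM, above all 24 h libraries. The rise from 24 h was 0.66 for Ifnar1 (SE 0.15, adjusted p = 0.00457) and 0.72 for Ifnar2 (SE 0.14, adjusted p = 0.00173, edgeR). Neither differed from PBS beyond the threshold (adjusted p = 0.611 and 0.470).

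With antibody, a rise of Ifnar2 from 24 h to 72 h was not detected (-0.05, SE 0.14, adjusted p = 0.967, edgeR). Its level was 111, 91.8 and 119 CPM at 24 h and 107, 84.8 and 119 CPM at 72 h, and all 3 libraries at 72 h were below all 3 with LPS alone. Against PBS, Ifnar2 with antibody was below every PBS library at both times but was not called. The log2 change was -0.26 at 24 h (SE 0.13, adjusted p = 0.148) and -0.30 at 72 h (SE 0.13, adjusted p = 0.113, edgeR). Ifnar1 was not called against PBS either (-0.33, adjusted p = 0.0853, and -0.10, adjusted p = 0.635, edgeR). The log2 change of antibody against LPS was -0.55 at 72 h (SE 0.14, adjusted p = 0.0181) and 0.22 at 24 h (SE 0.14, adjusted p = 1, edgeR). The difference between these effects was -0.77 (SE 0.20, adjusted p = 0.0350). Without both antibody libraries numbered 1 the estimates were alike but missed the threshold (-0.53, adjusted p = 0.0527, and -0.72, adjusted p = 0.105). Leaving out single libraries kept the call at 72 h in 2 of 6 fits (adjusted p 0.0171 to 0.0872) and that of the difference in 3 of 12 (0.0161 to 0.0898). Ifnar1 was at 74.6, 61.8 and 81.8 CPM with antibody at 24 h and at 93.3, 74.3 and 88.3 CPM at 72 h, where it lay below LPS alone without overlap but was not called (-0.29, SE 0.15, adjusted p = 0.203, and -0.31, adjusted p = 0.257, without both libraries numbered 1).

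The neighbouring Il10rb, chosen for description after its values were seen, was at 56.5, 96.3, 62.2, 64.1 and 74.7 CPM with PBS, 42.0, 42.2 and 39.3 CPM with LPS at 24 h and 90.3, 93.8 and 91.7 CPM with LPS at 72 h. With antibody it was at 42.5, 38.1 and 66.1 CPM at 24 h and 33.6, 50.5 and 60.5 CPM at 72 h. Its log2 change was -0.78 with LPS at 24 h against PBS (SE 0.21, adjusted p = 0.0101), 1.16 from 24 h to 72 h (SE 0.23, adjusted p = 0.00210) and -0.93 for antibody against LPS at 72 h (SE 0.23, adjusted p = 0.0157, edgeR). Il10rb and Ifnar2 were thus called in the same direction in these 3 comparisons, as was Gm21970, whose span overlaps both. As Gm21970 shares exon bases with Ifnar2, its calls are not a separate observation. Without both antibody libraries numbered 1, antibody against LPS at 72 h called neither Il10rb (-0.68, SE 0.23, adjusted p = 0.0668) nor Gm21970 (-0.64, SE 0.21, adjusted p = 0.0608), as it did not call Ifnar2. Of the markers of plasmacytoid dendritic cells, 4 of 10 were lower there, while Klk1 (1.01) and Pacsin1 (0.69) had positive estimates and were not called. The list summed to 350 to 470 CPM with LPS at 72 h and 203 to 257 CPM with antibody. Of the monocyte markers 2 of 7 were lower, at 1305 to 2956 CPM and 649 to 1341 CPM. Also lower were 1 of 12 HSPC and 1 of 10 T and NK markers, where 6.48% of all genes were lower. Resident macrophage and erythroid markers had list medians of 2.27 and 2.09, with 0 called. The part of such cells in the change of Ifnar2 was not tested.

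The interferon-gamma receptor chains did not follow this course. Ifngr1, the ligand-binding chain, was at 138, 155, 193, 184 and 123 CPM with PBS, 199, 153 and 154 CPM with LPS at 24 h and 152, 198 and 224 CPM with LPS at 72 h, all overlapping. With antibody it was at 223, 202 and 210 CPM at 24 h and 248, 279 and 200 CPM at 72 h, above every PBS library. The log2 change against PBS was 0.42 at 24 h (SE 0.17, adjusted p = 0.0777) and 0.61 at 72 h (SE 0.17, adjusted p = 0.0278, edgeR). The call at 72 h was lost without PBS library 2 or 5 or without antibody library 1 or 2 (adjusted p up to 0.0741), and without both antibody libraries numbered 1 the change was 0.62 (adjusted p = 0.0625). Against LPS alone it was 0.34 at 72 h (SE 0.19, adjusted p = 0.221), so a difference from LPS alone was not shown.

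Ifngr2, the signalling chain, was at 24.0, 39.1, 31.7, 40.1 and 26.8 CPM with PBS and 37.7, 32.4 and 29.2 CPM with LPS at 24 h. With LPS at 72 h it was at 41.1, 48.1 and 56.5 CPM, above every PBS library and every 24 h library. Neither change was called (0.59 against PBS, SE 0.18, adjusted p = 0.256; 0.55 against 24 h, SE 0.21, adjusted p = 0.0534, edgeR). With antibody it was at 34.7, 30.4 and 42.7 CPM at 24 h and 34.8, 33.3 and 45.5 CPM at 72 h, within the range of the other groups.

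**Figure D2:**
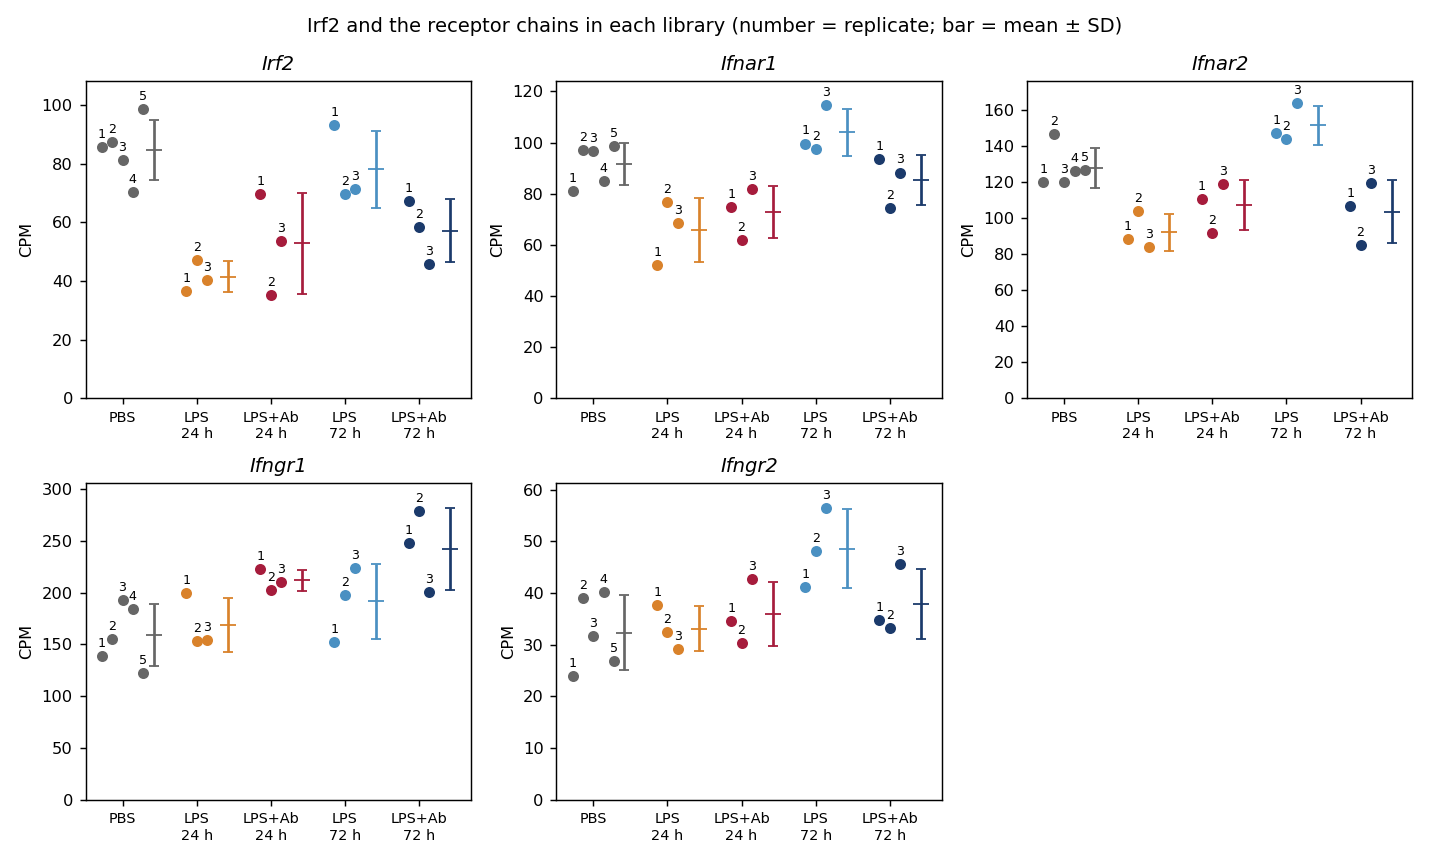
CPM of Irf2 and the 4 receptor chains on linear axes from 0, 1 point per library with its replicate number, and beside each group its mean ± SD. Irf2, Ifnar1 and Ifnar2 are low with LPS at 24 h (Irf2 at 36.7 to 47.1 CPM) and back at 72 h, and Ifnar2 with antibody at 72 h (84.8 to 119 CPM) lies below LPS alone (144 to 164 CPM).

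Counted over the 9 genes, LPS at 24 h against PBS called 3 lower (Irf2, Ifnar1 and Ifnar2) and 0 higher, in a comparison that called 37.6% of all tested genes (18.5% lower). The libraries of 4 of the 9 did not overlap between these groups, against 42.8% of all genes. Their median log2 change was -0.38, against -0.03 over all genes. LPS at 72 h against PBS called 0 of the 9, with 1 of the 9 not overlapping (12% of all genes), where edgeR called 0.0201% of the table and DESeq2 likewise called 0 of the 9. Ifngr2 was the 1 gene of the 9 with an unadjusted p below 0.05, a level reached by 11.4% of the table. Antibody at 24 h against PBS called 1 lower, Irf2, where 24.2% of all genes were called (12.5% lower), and at 72 h 1 higher, Ifngr1, where 13.2% were (6.81% higher). At each time 3 of the 9 had separate ranges, against 31% and 26.9% of all genes. Antibody against LPS called 0 at 24 h, where edgeR called 0% of all genes, DESeq2 0 of the 9, and an unadjusted p below 0.05 was reached by 0 of the 9 and 1.83% of all genes. Only Ifngr1 of the 9 had groups that did not overlap there, against 3.15% of all genes. At 72 h it called 1 lower, Ifnar2, where 15.1% of all genes were called (6.48% lower), and 3 of the 9 did not overlap, against 33.2%. From 24 h to 72 h, LPS alone called 3 higher, Irf2, Ifnar1 and Ifnar2, where 31.1% of all genes were called (14.7% higher), and 6 of the 9 did not overlap, against 45.4%. Over the same time LPS with antibody called 0 of the 9 and 0% of all genes by edgeR and 0 of the 9 by DESeq2, and an unadjusted p below 0.05 was reached by 0 of the 9 and 4.26% of all genes. None of the 9 had groups that did not overlap, against 9.26% of all genes. The difference of the antibody effects called 1 lower, Ifnar2, where 6.35% of all genes were called (2.32% lower). With 9 genes, none of these shares stands out from the background of its comparison. The 3 genes called lower at 24 h against PBS were the 3 called higher from 24 h to 72 h, in comparisons that share the 24 h libraries.

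**Figure D3:**
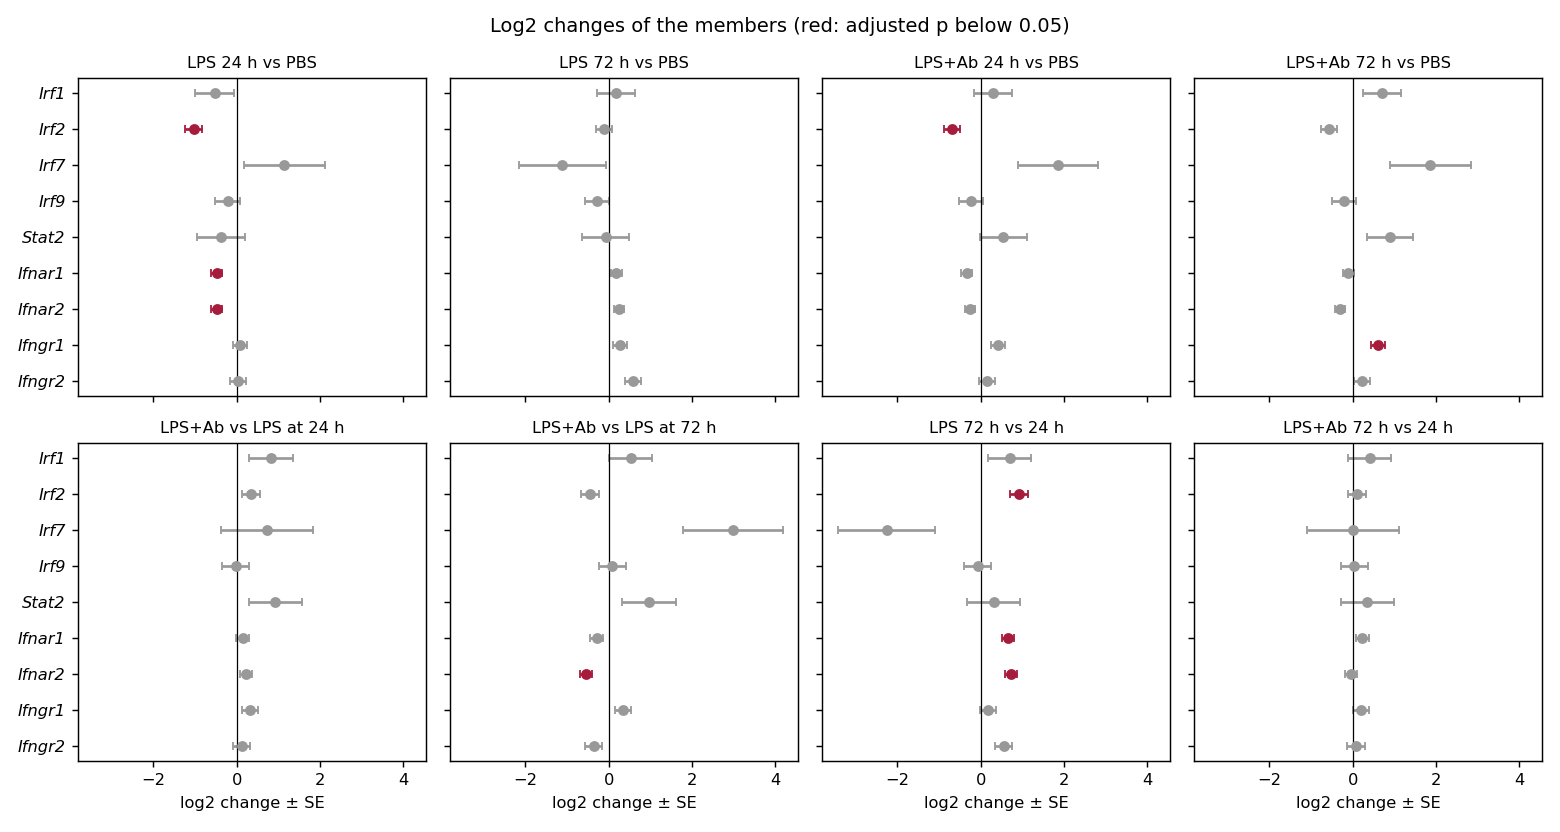
Log2 change ± SE of the 9 genes in 8 comparisons (edgeR), with genes called at an adjusted p below 0.05 in red. Irf2, Ifnar1 and Ifnar2 are called lower with LPS at 24 h (-1.03, -0.48 and -0.48), and Irf7 has the longest error bars, with an SE of 1.20 for antibody against LPS at 72 h.

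Compared per length (CPM per kilobase of annotated exons), which allows genes to be set side by side, Ifngr1 had the highest group mean of the 9 in every group, at 55.7 in PBS. Ifnar2 followed at 38.5, Irf1 at 26.3, Irf9 and Ifnar1 at 15.4 each, Irf7 at 13.3, Irf2 at 11.5, Stat2 at 9.90 and Ifngr2 at 8.59. In PBS only the neighbours Ifnar2 and Irf1, and Irf1 and Irf9, had ranges that did not overlap. The place of Irf7 in this order was 6 with PBS, 2 with LPS at 24 h and 9 with LPS at 72 h. With antibody its mean ranked 2 at both times, a place set by library 1, in which Irf7 reached 120 at 24 h and 131 at 72 h, above the highest level of Ifngr1 in the group (78.2 and 98.0).

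**Figure D4:**
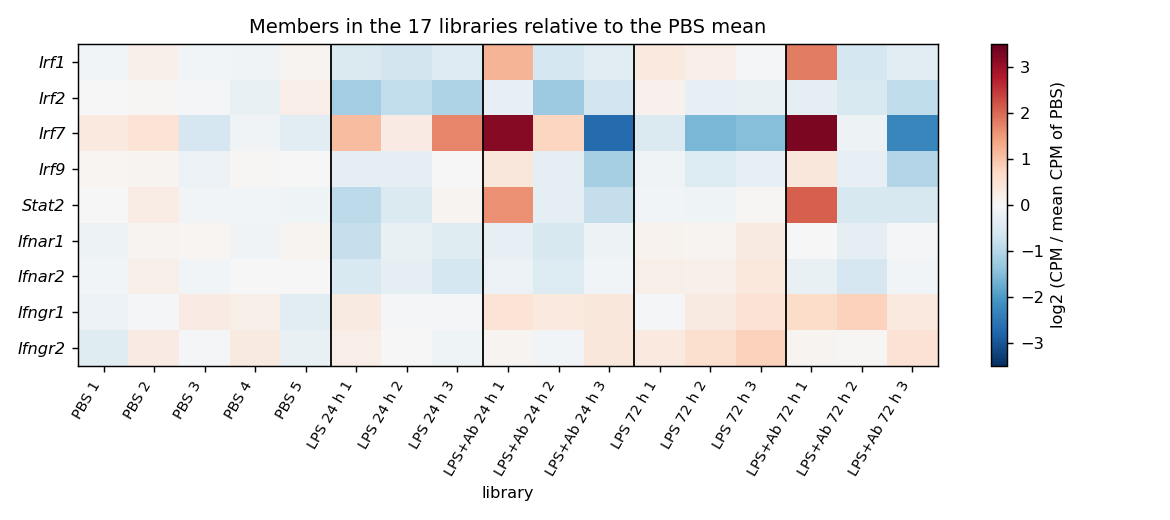
Log2 of the CPM of each gene in each of the 17 libraries over its PBS mean, on a colour scale from blue (lower) to red (higher). The 4 receptor rows stay pale, and the strongest red is Irf7 in antibody library 1 at 24 h and 72 h (9.04 and 9.85 times the PBS mean), the strongest blue Irf7 in antibody library 3 (0.156 and 0.206 times).

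Across the 17 libraries the 9 genes fell into patterns, described by Pearson's r of log2 CPM. The libraries share groups and scaling, so r is a description. Irf1 and Stat2 were alike (r = 0.924), but without both antibody libraries numbered 1 their r was 0.635 over 15 libraries. Conversely, Irf1 and Ifnar2 had r = 0.288 over 17 libraries and 0.838 over those 15, and Irf1 and Irf2 had 0.490 and 0.851. Outside these 2 libraries Irf1 therefore ran with Irf2 and the type I receptor chains. Irf7 and Irf9 kept r = 0.819 and 0.734, and Ifnar1 and Ifnar2 0.855 and 0.886.

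For each of the 9, the 3 genes of the table with the highest r over the 17 libraries were as follows. Irf7 was most like Usp18 (0.994), which encodes an inhibitor of the type I receptor, Dhx58 (0.984) and Zbp1 (0.983), both sensors of nucleic acids, and these values were at least 0.971 without both antibody libraries numbered 1. Irf9 was most like Trim30d (0.951), Ifi213 (0.950) and Ifi206 (0.936), and Stat2 like Gm42917 (0.964), Trim21 (0.963) and Mxd1 (0.957). Irf1 was most like Gm17334 (0.967), with which it shares exon bases, Relb (0.949), a subunit of NF-kappaB, and Trafd1 (0.942). For Irf1 and Stat2 these values rested in part on the 2 libraries and were 0.762 to 0.893 without them. Irf2 was most like Tsc22d1 (0.969), Mettl27 (0.968) and Fam102a (0.964), Ifnar1 like Rel (0.960), Elf1 (0.953) and Map4k4 (0.949), and Ifnar2 like Gm26586 (0.965), Pld4 (0.959) and Irf8 (0.949). The genes most like Ifngr1 were Gm1604a (0.864), Ncstn (0.826) and Dab2 (0.826), and those most like Ifngr2 were Slc49a4 (0.901), Ms4a6b (0.849) and Cxcr4 (0.849).

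Of the 5 other interferon regulatory factors tested, 3 were lower and 0 higher with LPS at 24 h against PBS, where 18.5% of all genes were lower and 19.1% higher, and the list median was -0.99. Irf4, a factor of lymphoid cells, changed by -2.31 (SE 0.47, adjusted p = 0.00199) and Irf8, a factor of monocyte and dendritic cell fate, by -0.99 (SE 0.33, adjusted p = 0.0278, edgeR). From 24 h to 72 h of LPS 3 of 5 rose (14.7% of all genes), with Irf8 at 1.60 (SE 0.36, adjusted p = 0.00442). At 72 h Irf8 was lower with antibody than with LPS alone (-1.47, SE 0.36, adjusted p = 0.0147), the only one of 5 called (6.48% of all genes were lower). This call was lost without both antibody libraries numbered 1 (-1.39, SE 0.43, adjusted p = 0.0526), and 0 of 5 were called. The difference of the antibody effects on Irf8 between 72 h and 24 h was not called (-1.64, SE 0.51, adjusted p = 0.0647). Called markers of plasmacytoid dendritic cells and of monocytes, given above, moved the same way, and the part of such cells was not tested.

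Among the 6 other STATs, 1 was lower with LPS at 24 h (18.5% of all genes). This was Stat4, which transduces interleukin-12 (-1.11, SE 0.19, adjusted p = 0.000753, edgeR), and it rose by 1.08 from 24 h to 72 h (SE 0.20, adjusted p = 0.00134). Stat4 was also lower with antibody at 24 h than with PBS (-0.88, SE 0.19, adjusted p = 0.00658, edgeR), where 12.5% of all genes were lower. Without both antibody libraries numbered 1, that comparison again called 1 of 6 lower. No other STAT was called in any of the 9 comparisons. Their summed level was 1180 CPM in antibody library 1 at 24 h and 1267 CPM at 72 h, against 615 to 767 CPM in all other libraries. Of the 3 receptor kinases, Jak1, which serves both receptors, was lower with LPS at 24 h (-0.42, SE 0.13, adjusted p = 0.0198) and with antibody at 24 h (-0.41, SE 0.13, adjusted p = 0.0340) than with PBS, in comparisons that called 18.5% and 12.5% of all genes lower. The change at 24 h with antibody was -0.43 (SE 0.15, adjusted p = 0.0490) without both libraries numbered 1.

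Of 8 feedback inhibitors, LPS at 24 h raised Ptpn2, a phosphatase that acts on JAKs and STATs (0.51, SE 0.14, adjusted p = 0.0105, edgeR), and lowered Pias1 (-0.34, SE 0.12, adjusted p = 0.0380), where 19.1% of all genes rose and 18.5% fell. Antibody against LPS at 72 h raised 1, the phosphatase gene Ptpn11 (0.62, SE 0.16, adjusted p = 0.0183), where 8.64% of all genes rose. That call was lost without both antibody libraries numbered 1 (0.58, SE 0.18, adjusted p = 0.0546), and 0 of 8 were called. Of 15 tested sensors and adaptors upstream of interferon, LPS at 24 h called 4 lower (18.5% of all genes) and 1 higher (19.1%). Tlr7 fell by 2.32 (SE 0.38, adjusted p = 0.000645) and Tlr3 by 2.39 (SE 0.57, adjusted p = 0.00509), both receptors for RNA, and Myd88, the adaptor of most Toll-like receptors, rose by 0.86 (SE 0.16, adjusted p = 0.00126). At 72 h antibody against LPS called 2 of 15 higher (8.64% of all genes), Myd88 at 0.85 (SE 0.18, adjusted p = 0.00809) and Traf3 at 0.74 (SE 0.17, adjusted p = 0.0103). Without both antibody libraries numbered 1 the count was again 2 of 15 higher.

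Downstream, 2 of 23 tested ISGF3 targets rose with LPS at 24 h and none fell, while Stat2 and Irf9 were not called, in a comparison that called 19.1% of all genes higher. They were Oas1a, an antiviral enzyme (1.04, SE 0.32, adjusted p = 0.0187), and Bst2, which tethers virions (1.32, SE 0.47, adjusted p = 0.0366, edgeR). The list median was 0.22. From 24 h to 72 h of LPS 1 of 23 fell (Oas1a, -1.47, SE 0.37, adjusted p = 0.00775), where 16.4% of all genes fell, and the median was -1.09. With antibody against PBS 0 of 23 were called at 24 h or 72 h by edgeR, with 5 at an unadjusted p below 0.05 at each time (38.6% and 31.7% of all genes), and medians of 0.72 and 0.87. Without both antibody libraries numbered 1 these medians were -0.44 and -0.49, with 1 of 23 called lower at 24 h and 0 called at 72 h. The summed level of the list was 3128, 1119 and 552 CPM in antibody libraries 1, 2 and 3 at 24 h and 3567, 899 and 600 CPM at 72 h, against 764 to 1035 CPM with PBS, in the same order as Irf7 and Irf9.

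Of 21 interferon-gamma targets, 2 rose with LPS at 24 h, where 19.1% of all genes rose. These were Psmb8 (0.62, SE 0.17, adjusted p = 0.0110) and Psmb10 (1.02, SE 0.31, adjusted p = 0.0172, edgeR), both subunits of the immunoproteasome. With antibody against PBS 4 of 21 rose at 24 h (median 1.13) and 5 of 21 at 72 h (median 1.74), where 11.7% and 6.81% of all genes rose. Among them was Gbp3, a guanylate-binding protein, at 1.28 (SE 0.38, adjusted p = 0.0248) and 1.75 (SE 0.38, adjusted p = 0.0119). Without both antibody libraries numbered 1, 2 and 1 were called and the medians were 0.01 and -0.33, with Gbp3 at 0.82 (adjusted p = 0.00578) and 0.77 (adjusted p = 0.0184). Antibody against LPS at 72 h called 0 of 21 by edgeR, with 14 at an unadjusted p below 0.05 (32.5% of all genes) and a median of 1.75, which was -0.24 without both libraries.

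**Figure D5:**
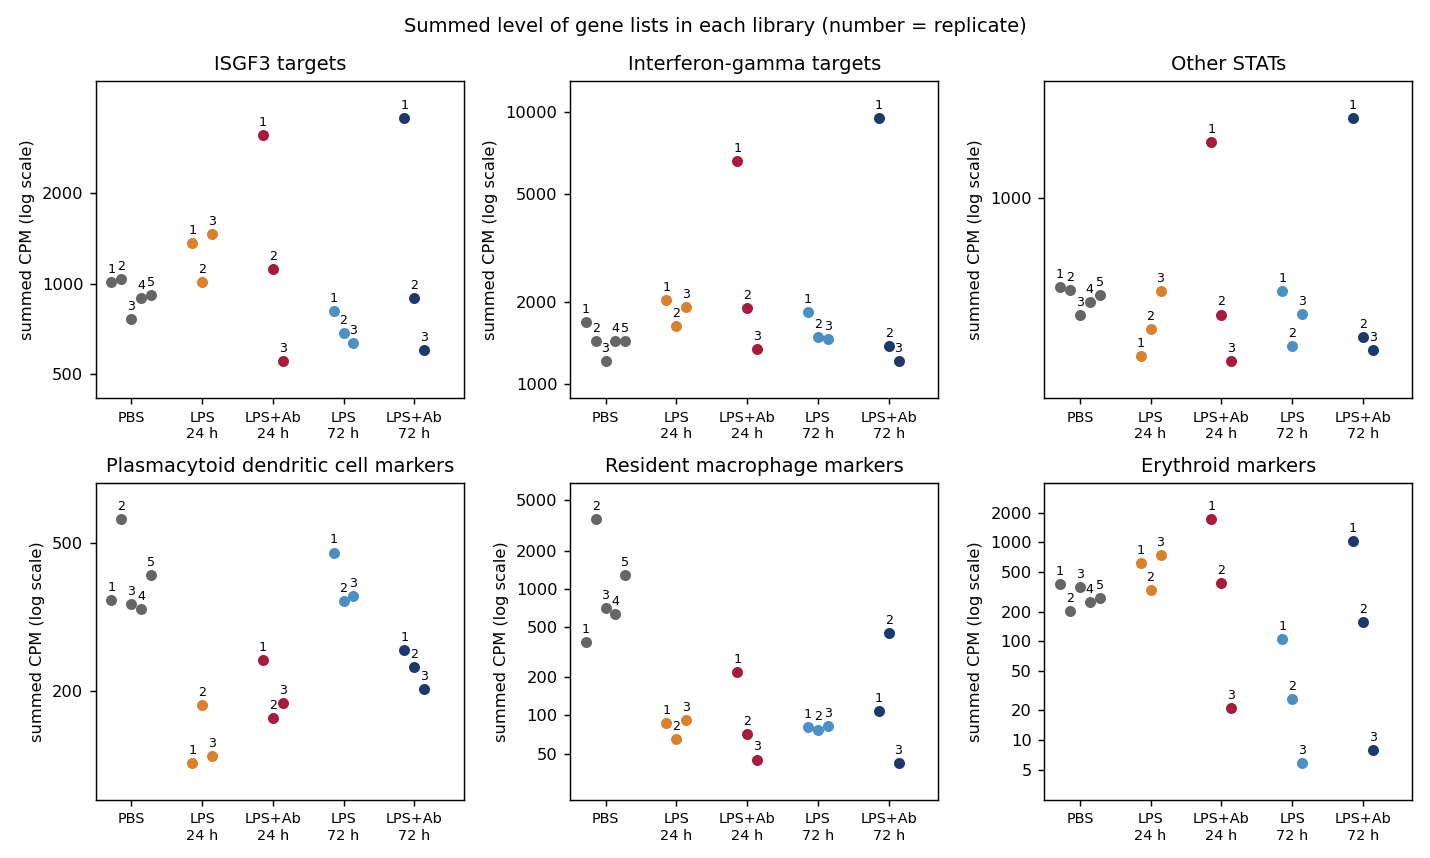
Summed CPM of 6 gene lists on log axes, 1 point per library with its replicate number, for the 5 groups. Library 1 of each antibody group is the highest for ISGF3 targets, interferon-gamma targets and the other STATs, and for erythroid markers the antibody libraries run from 1713 to 21.2 CPM at 24 h.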

How the data were processed

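The authors deposited 1 table of whole-number read counts per gene symbol for 17 libraries, with no unmatched column (0). Per the submitters' processing notes, HISAT2 2.2.0, Subread, featureCounts 2.1.1, R 4.3.2, DESeq2 and the build GRCm38 were used. The annotation, strandedness and treatment of reads that match several genes are not given in the sources used here. Groups and replicate numbers came from the sample titles.

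Analysis of the counts used edgeR 4.0.16 under R 4.3.3. The filter was filterByExpr (minimum count 10, minimum total 15), which left 99.9% of the counts, and libraries were scaled by TMM. The quasi-likelihood test was run in 1 fit of all 17 libraries with a mean per group, two-sided, adjusted by Benjamini-Hochberg over 14920 genes, and called at 0.05. The script was tested on simulated counts. An SE is the log2 change divided by the square root of F. CPM are scaled by TMM, and log2 CPM carry a prior count of 2. Levels per length divide CPM by exon bases of GENCODE's GRCm38 annotation. The lowest chi-square per gene between libraries of a group was 11.1, so none was a duplicate of another in its group. Libraries of different groups were not compared in this way. The counting precision of a single value follows from its count, at least 96 for the 9 genes, and leaves out the spread between libraries.

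The 9 genes, the lists and the comparisons were chosen with earlier results of these data known. All 9 genes are named in each comparison, with the 3 genes most alike in pattern and up to 3 genes per list with the lowest adjusted p. Alternatives were DESeq2 1.42.0, limma 3.58.1 (voom with quality weights), other scaling factors, other filters, a fit of the compared groups only, a replicate block and leaving out libraries. Leaving out both antibody libraries numbered 1, and fitting the 6 libraries of the block without it, were added after seeing the data. For LPS at 24 h against PBS, libraries with the same number deviated together (r from 0.158 to 0.191 in 3 pairs). Libraries with different numbers were not compared, so these values do not show that the number pairs them, and the labels do not say so. In the other comparisons at least 1 of the 3 pairs had r of 0.07 or less. Between the antibody groups at 72 h and 24 h, r was 0.723 and 0.697 in pairs 1 and 3 and -0.02 in pair 2, so not every pair was above 0.1. Antibody libraries 1 and 3 thus deviated alike at the 2 times, and their repeated patterns may not be independent observations. Deviations were taken from the mean of each group of 3, so the r of 1 pair depends in part on the others. Here too, libraries with different numbers were not compared.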

Additional observations from a re-analysis of the deposited data

Results flagged for a closer look

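Ifnar2 was marked for a second look in 2 respects. Within PBS, library 2 stood apart at 147 CPM, with the other 4 libraries between 120 and 127 CPM. Its gap to the next library was 0.745 of the whole range, above the critical value of 0.71 for 5 libraries. Chance marks about 1 in 20 such groups, and 9 genes were tested. PBS library 2 also had the highest summed level of resident macrophage markers, 3527 CPM, and of plasmacytoid dendritic cell markers, 577 CPM. Second, the effect of the antibody on Ifnar2 differed between the times by -0.77 on the log2 scale (SE 0.20, adjusted p = 0.0350, edgeR's test of the difference). It was 0.22 at 24 h, where the groups overlapped, and -0.55 at 72 h, where 3 of 3 antibody libraries were below all with LPS alone.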

How the results depend on the processing

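Over all alternatives, 1178 of 1350 log2 changes of the 9 genes kept their direction and their side of the threshold, 97 changed sign without being called, 37 lost and 35 gained a call, and 3 reversed. The reversed values were all Irf1 without both antibody libraries numbered 1, at -0.48 against PBS at 24 h and at 72 h and -0.64 against LPS at 72 h. Of the 72 mean levels 1 moved by over 1 SD, Irf1 with LPS at 24 h without TMM factors (66.9 CPM).

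Counts of the 9 genes called are listed mainly where they moved far from the main count, so a setting not listed can still differ from it a little or call another gene. For LPS at 24 h against PBS, where the main count was 3, the fit of the compared groups called 5. For LPS at 72 h against PBS (main count 0), voom called 1. For antibody at 24 h against PBS (main count 1), upper-quartile factors, the upper part of the genes by expression and the fit without both antibody libraries numbered 1 called 3 each, voom called 2, and the replicate block and the same 6 libraries without it called 0. For antibody at 72 h against PBS (main count 1), upper-quartile factors and voom called 3, the upper part, DESeq2 and the fit without both libraries called 2, and the block and its 6 libraries called 0. For antibody against LPS at 72 h (main count 1), voom called 3, and the fit of the compared groups and the block called 0. The fit without both libraries called Irf1 lower there and did not call Ifnar2. For LPS at 72 h against 24 h (main count 3), upper-quartile factors called 4, voom and the block 5 and the fit of the compared groups 6. For the difference of antibody effects (main count 1), no filter, the compared groups, the block and the fit without both libraries called 0. Leaving out 1 library at a time gave counts, in the order of the comparisons above, of 2 to 3, 0 to 0, 0 to 2, 0 to 1, 0 to 2, 3 to 3 and 0 to 2. Both comparisons with a main count of 0 not listed here, antibody against LPS at 24 h and antibody over time, stayed at 0 to 0. The cause of these differences was not tested.

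With the replicate block, Irf1 was called lower with LPS at 24 h (-0.52, adjusted p = 0.0351), as it was in the same 6 libraries without the block (adjusted p = 0.0305), and from 24 h to 72 h of LPS Irf1 (0.71, adjusted p = 0.0266) and Irf7 (-2.20, adjusted p = 0.00572) were called. Ifnar1 and Ifnar2 were called lower with the block (adjusted p = 0.0300 and 0.0302) but not in those 6 libraries without it (-0.47, adjusted p = 0.0776, and -0.48, adjusted p = 0.0501). Over all genes, LPS at 24 h against PBS called 4776 with the block, 4030 in the same 6 libraries without it and 5616 in the fit of all 17. Antibody against PBS called 0 with the block at either time, and 1393 at 24 h and 0 at 72 h in the same libraries without it. Upper-quartile factors moved the median of all genes by -0.13 in LPS at 24 h against PBS, and no called gene of the 9 changed sign under another scaling. Irf7 had the lowest count of the 9, 96 in its lowest library, and its wide spread between libraries is given above.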
